A study of Mus musculus with 6 samples.

Results

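The genes described here encode the nuclear pore complex and the karyopherins, the transport receptors that carry proteins and RNAs through it. A list of 50 mouse genes was matched to the single gene symbol, or an older synonym, of each probe set, and each gene was represented by its probe set of highest mean signal over all 6 arrays. Of the 50 genes, 48 had such a probe set, and Nup35 and Tpr had none. These 48 were among 12971 genes tested, and they comprise 28 nucleoporins, 5 importins alpha, 9 members of the importin beta family, 5 exportins and Ran. The samples were testes collected on postnatal day 21, 3 from Nxf2 knockout (KO) mice and 3 from wild-type (WT) mice, each hybridised to 1 Affymetrix array. The labels give no strain, no description of the deleted part of Nxf2, and no number of animals per sample, so p-values measure only the spread between these samples. NXF2 belongs to the family of mRNA export receptors.

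The nuclear pore complex is built of nucleoporins, which form stacked rings around a central channel. Nucleoporins with phenylalanine-glycine repeats fill that channel and bind passing receptors. Importins bring cargo in and exportins take cargo out, and both read the gradient of Ran bound to GTP, which is high in the nucleus. NXF family receptors carry mRNA through the same repeats without using Ran directly, and in the testis germ cells use different importin alpha subtypes as they differentiate.

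Signals are MAS5 values on a linear scale as the authors deposited them, log2 fold changes are KO minus WT from limma on log2(signal + 7), and a probe set is called at an adjusted p under 0.05 over all 27022 probe sets tested. Signals of different probe sets are not on a common scale, so levels are compared only between groups. Nxf2 itself was at 116, 106 and 131 in KO, against 374, 340.4 and 386 in WT, a log2 fold change of -1.59 ± 0.0999 (SE; limma, adjusted p = 0.000488), and the labels do not tell whether its probes lie in the deleted part. Array medians lay between 37.1 and 40.9. Spearman correlations across the 27022 probe sets tested ran from 0.985 to 0.992 within KO, from 0.980 to 0.991 within WT and from 0.965 to 0.983 for pairs of a KO and a WT array.

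At the brightest probe set of each gene, transcripts of the pore and its receptors differed little between KO and WT testes. Of the 48 members, 2 fell and none rose: Nup50, a mobile nucleoporin of the nuclear basket, and Xpo6, the exportin for actin. Among all tested genes 10.3% were called, 7.37% lower and 2.98% higher in KO testes, and among the 9053 genes at least as bright as the dimmest member the share was 11.1%. An unadjusted p under 0.05 was found for 9 members (18.8%), against 34.9% of all tested genes. All 9 had lower means in KO testes: Nup37, Nup205, Nup188, Nupl2, Nup50, Kpna4, Xpo4, Xpo5 and Xpo6. Log2 fold changes of members ran from -0.29 to 0.11 with a median of -0.026, against a median of 0.036 over all tested genes. A lower mean in KO testes was found for 29 members (60.4%), against 43.1% of all tested genes and 47.0% of the 9053 brighter genes. All 48 of the 95% confidence intervals lay within 1.5-fold of no difference, whereas 76.5% of all tested genes and 87.6% of the 9053 brighter genes did so. Over all 121 tested probe sets of members, 114 (94.2%) did so, against 75.6% of all tested probe sets. Among the 121, the lowest bound was -0.73, at the called second probe set of Kpna4. The highest was 0.88, at a dimmer, uncalled probe set of Gle1. The 1.5-fold limit was chosen after the values were seen and lies just outside the widest of the 48 intervals. That widest interval reached -0.56, for Nupl2, and the highest upper bound of the 48 was 0.30, for Nup43. The median size of the log2 fold change, leaving out its sign, was 0.069 over members and 0.16 over all tested genes.

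**Figure D1:**
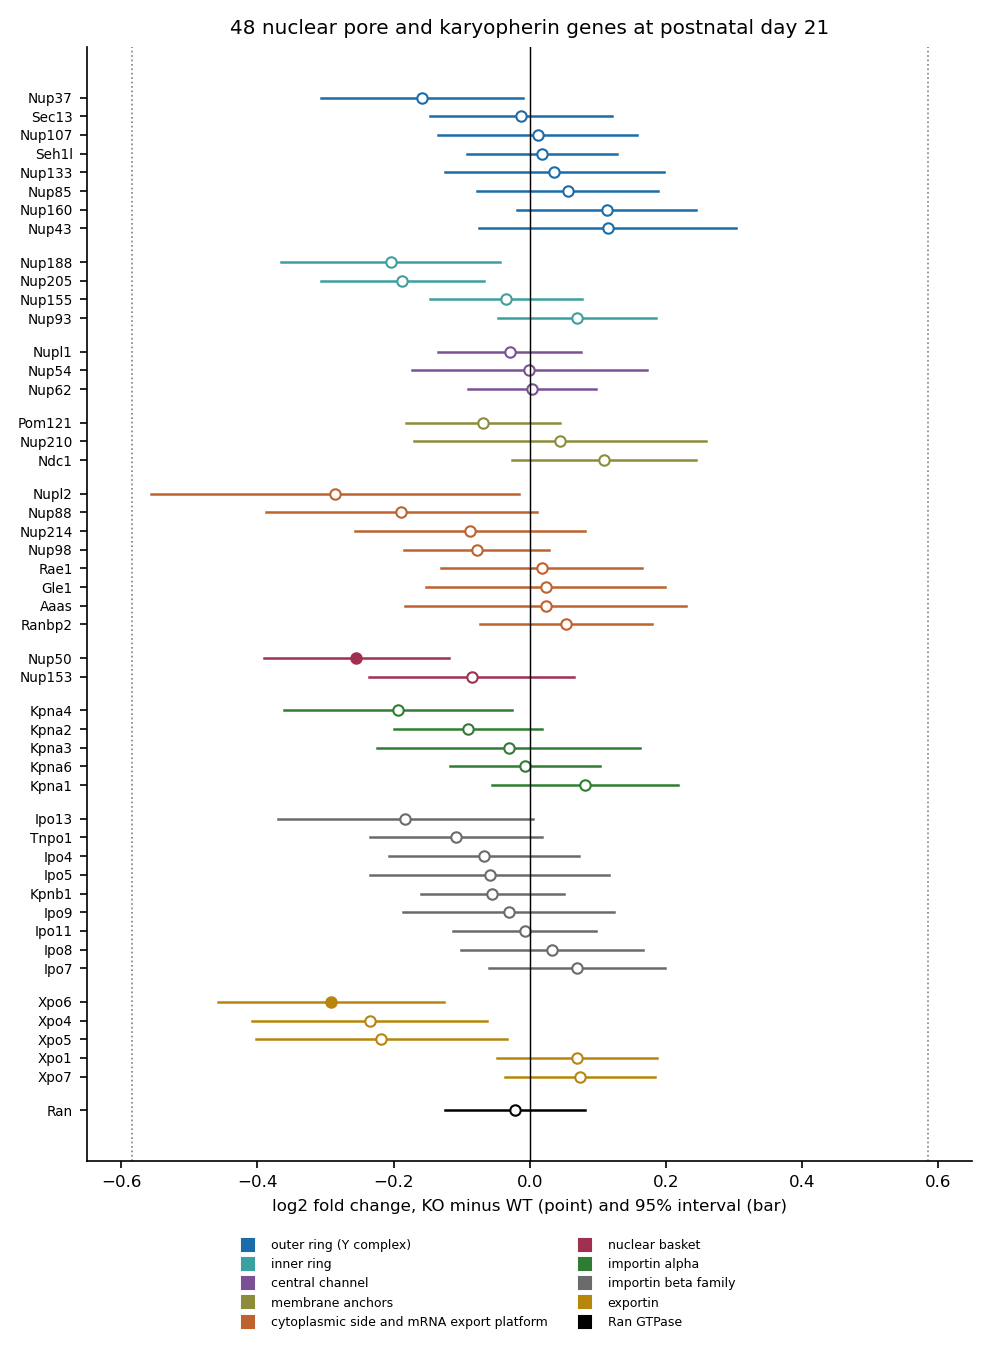
Log2 fold change, KO minus WT, of each of the 48 members with its 95% confidence interval on the horizontal axis, grouped and coloured by role, with dotted lines at 1.5-fold and filled points for called members. All 48 intervals lie within 1.5-fold of 0, and Nup50 and Xpo6 are the 2 called members, both below 0.

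Arrays of the 2 groups did not overlap for 10 members with KO below WT and 3 with KO above WT, against backgrounds of 18.3% and 21.5% of all tested genes in those directions and 39.8% in either. The 10 were Nup37, Nup205, Nup188, Nup98, Nupl2, Nup50, Ipo13, Xpo4, Xpo5 and Xpo6. The 3 were Nup160, Nup93 and Ndc1. The members lie on 16 chromosomes, with at most 6 on any of them and none on the X chromosome.

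In the RefSeq promoter table of GRCm38.p6, 41 of the 50 members were matched, with 47 start sites, and the 250 bases upstream of each were compared with the 32851 promoters in the table. Promoters of the members were rich in CpG, with a median observed over expected CpG ratio of 0.868 against 0.373 over all promoters and a GC content of 62.8% against 52.4%. A ratio over 0.6 was found in 42 of 47 (89.4%), against 34.0% of all. Motifs were searched on both strands. The palindrome of NRF1 type, which is the letters GCGCA followed directly by their reverse complement, stood in 5 promoters (10.6%), those of Nup107, Nup50, Nup62, Ran and Xpo5, against 0.782% of all promoters, and in 11.9% of the CpG-rich member promoters (ratio over 0.6), against 2.04% of all 11153 CpG-rich ones. The GC box GGGCGG stood in 29 (61.7%), against 32.7% of all promoters, and in 66.7% of the CpG-rich member promoters, against 67.5% of all CpG-rich ones. The CCAAT box stood in 20 (42.6%), against 33.8% of all promoters, and in 45.2% against 33.4% of CpG-rich ones. TATAAA stood in 5 (10.6%), against 12.4% of all promoters, and in 4.76% against 5.16% of CpG-rich ones. These matches are descriptions of the letters and not binding sites.

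The bases upstream of both called members are shown, with those of Kpna4, which had a called second probe set, and of Ran, which did not differ in call and carries the palindrome. They are read 5′ to 3′ on the gene's strand in GRCm38.p6, and capitals mark the NRF1-type palindrome, the GC box and the CCAAT box on either strand. Nup50 is at chr15:84923178-84923427 (plus strand), Xpo6 at chr7:126200540-126200751 (minus strand, trimmed to the bases outside the gene), Kpna4 at chr3:69127093-69127342 (minus strand) and Ran at chr5:129019906-129020155 (plus strand).
Nup50: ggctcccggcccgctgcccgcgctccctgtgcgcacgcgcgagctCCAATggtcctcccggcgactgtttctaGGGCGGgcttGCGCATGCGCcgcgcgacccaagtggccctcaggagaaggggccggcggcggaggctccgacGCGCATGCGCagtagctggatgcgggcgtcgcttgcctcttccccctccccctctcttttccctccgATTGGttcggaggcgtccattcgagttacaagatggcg
Xpo6: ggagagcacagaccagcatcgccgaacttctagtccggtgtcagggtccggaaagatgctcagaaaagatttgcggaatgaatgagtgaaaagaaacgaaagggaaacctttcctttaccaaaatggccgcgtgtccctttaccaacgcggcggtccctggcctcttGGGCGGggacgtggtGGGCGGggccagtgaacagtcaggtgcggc
Kpna4: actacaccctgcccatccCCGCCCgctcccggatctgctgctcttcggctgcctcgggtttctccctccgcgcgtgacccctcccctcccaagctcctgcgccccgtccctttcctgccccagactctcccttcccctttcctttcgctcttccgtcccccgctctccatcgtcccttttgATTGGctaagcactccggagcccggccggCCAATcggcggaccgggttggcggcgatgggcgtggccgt
Ran: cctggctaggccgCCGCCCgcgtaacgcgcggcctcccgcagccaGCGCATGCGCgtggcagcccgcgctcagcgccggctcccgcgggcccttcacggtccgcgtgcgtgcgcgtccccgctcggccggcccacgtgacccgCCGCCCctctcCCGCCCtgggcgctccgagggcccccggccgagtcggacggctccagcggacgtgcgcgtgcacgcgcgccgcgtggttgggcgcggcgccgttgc
The Nup50 window holds 2 palindromes, 1 GC box and 2 CCAAT boxes. The printed Xpo6 window holds 2 GC boxes, and a CCAAT box stands in the bases trimmed from it. The Kpna4 window holds 1 GC box and 2 CCAAT boxes, and the Ran window 1 palindrome and 3 GC boxes.

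Of the 28 nucleoporins measured, 1 fell and none rose, 14 had a lower and 14 a higher mean in KO testes, and the median log2 fold change was 0.0015. The outer ring, whose Y-shaped complex scaffolds the pore, had no called gene among 8, and 6 of the 8 had a higher mean in KO testes. Nup160, a scaffold protein of that complex, was at 458, 457 and 450.0 in KO, against 415, 422 and 424 in WT, a log2 fold change of 0.11 ± 0.0593 (SE; limma, adjusted p = 0.237). Its KO arrays all lay above the WT arrays. Nup37, a small peripheral member of the complex, was at 530.0, 483 and 464 in KO, against 557, 561 and 531 in WT, a log2 fold change of -0.16 ± 0.0668 (SE; limma, adjusted p = 0.156). Its KO arrays all lay below the WT arrays. The other members of the ring were within -0.013 to 0.11: Nup107 and Nup133, which form the stem of the complex, were at 0.012 and 0.036, and Nup43, Nup85, Seh1l and Sec13 were at 0.11, 0.056, 0.018 and -0.013.

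The inner ring links the membrane to the channel, and 3 of its 4 measured genes had a lower mean in KO testes, with a median of -0.11 and none called. Nup205, a large scaffold protein of that ring, was at 733, 736 and 679 in KO, against 797, 837 and 813 in WT, a log2 fold change of -0.19 ± 0.0536 (SE; limma, adjusted p = 0.0619) with a 95% interval of -0.31 to -0.068. The groups did not overlap, and its second probe set was at -0.31 (limma, adjusted p = 0.126), also without overlap. Nup188, a paralogue of Nup205, was at 544, 507 and 508 in KO, against 584, 559 and 659 in WT, a log2 fold change of -0.20 ± 0.0722 (SE; limma, adjusted p = 0.105). All 3 KO arrays lay below the WT arrays for Nup188 as well. Nup93, which holds the ring together, was at 0.070 with KO arrays above the WT arrays, and Nup155 at -0.035 with overlapping arrays.

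The central channel genes encode repeat nucleoporins that form 1 complex, and their brightest probe sets were level. Nup62 was at 1785, 1646 and 1681 in KO, against 1659, 1753 and 1686 in WT, a log2 fold change of 0.0034 ± 0.042 (SE; limma, adjusted p = 0.966). Nupl1, which encodes NUP58, was at 1308, 1326 and 1238 in KO, against 1274, 1382 and 1296 in WT, a log2 fold change of -0.029 ± 0.0471 (SE; limma, adjusted p = 0.715). The groups overlapped for both, and Nup54 was at -0.000458. Other tested probe sets of Nup54 were at -0.27, -0.076 and -0.035, and none was called. The brightest probe sets of Nup62 and Nupl1 can match other sequences by their names, and their other tested probe sets gave lower values: -0.16 to -0.095 at 4 probe sets of Nup62 and -0.27 to -0.097 at 3 of Nupl1, none of them called (lowest adjusted p 0.153 and 0.108). At 2 of these 3 Nupl1 probe sets and 1 of the 4 for Nup62 the KO arrays lay below the WT arrays.

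Membrane anchors fix the pore in the nuclear envelope, and none of the 3 was called. Ndc1 was at 481, 476 and 491 in KO, against 461, 430.4 and 450.3 in WT, a log2 fold change of 0.11 ± 0.0607 (SE; limma, adjusted p = 0.262), with KO arrays above WT arrays. Pom121 was at 833, 825 and 774 in KO, against 829, 861 and 861 in WT, a log2 fold change of -0.069 ± 0.0508 (SE; limma, adjusted p = 0.396), with overlapping arrays. Nup210, a glycoprotein of the pore membrane, was at 0.045.

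Among 8 genes of the cytoplasmic side, where exported mRNA is released, none was called and 4 had a lower mean in KO testes. Nupl2, which helps anchor the mRNA export factor GLE1, was at 94.9, 112 and 93.5 in KO, against 118, 114 and 139 in WT. Its log2 fold change was -0.29 ± 0.121 (SE; limma, adjusted p = 0.157) with an interval of -0.56 to -0.015, the groups did not overlap, and its second probe set was at -0.38 (adjusted p = 0.11). Nup88, the partner of NUP214, was at 674, 572 and 510.1 in KO, against 679.5, 655 and 656 in WT, a log2 fold change of -0.19 ± 0.0892 (SE; limma, adjusted p = 0.195), and the groups overlapped. Without KO replicate 1, Nup88 passed the threshold (adjusted p = 0.047). Nup98, which binds mRNA export factors and RAE1, was at -0.078 with KO arrays below WT arrays, and Nup214, Rae1, Gle1, Ranbp2 and Aaas were at -0.087, 0.018, 0.023, 0.053 and 0.024.

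The nuclear basket faces the chromatin, and Nup50, which releases import cargo from importin alpha, was the 1 nucleoporin that fell. Its signal was 441, 439 and 414 in KO, against 503, 515 and 529.9 in WT, a mean of 431 ± 14.7 in KO and 516 ± 13.7 in WT (SD, n = 3 each). The groups did not overlap, and the log2 fold change was -0.25 ± 0.0613 (SE; limma, adjusted p = 0.0357), with an interval of -0.39 to -0.12. A second probe set was also called, at 314, 289 and 293 in KO, against 390.1, 339 and 421 in WT, a log2 fold change of -0.35 ± 0.0895 (SE; limma, adjusted p = 0.0439). The third was not, at -0.13 (adjusted p = 0.714). Nup153, the basket nucleoporin to which NUP50 binds, was at 624, 631 and 541 in KO, against 639.6, 631 and 632 in WT, a log2 fold change of -0.085 ± 0.0677 (SE; limma, adjusted p = 0.432), with overlapping arrays. The call at the brightest probe set was lost with any array left out: the adjusted p was 0.0612, 0.0693 and 0.075 without KO replicates 1, 2 and 3 in turn, and 0.124, 0.0845 and 0.0856 without WT replicates 1, 2 and 3 in turn. That of the second probe set was lost without each array but WT replicate 2, at 0.0628 to 0.159.

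**Figure D2:**
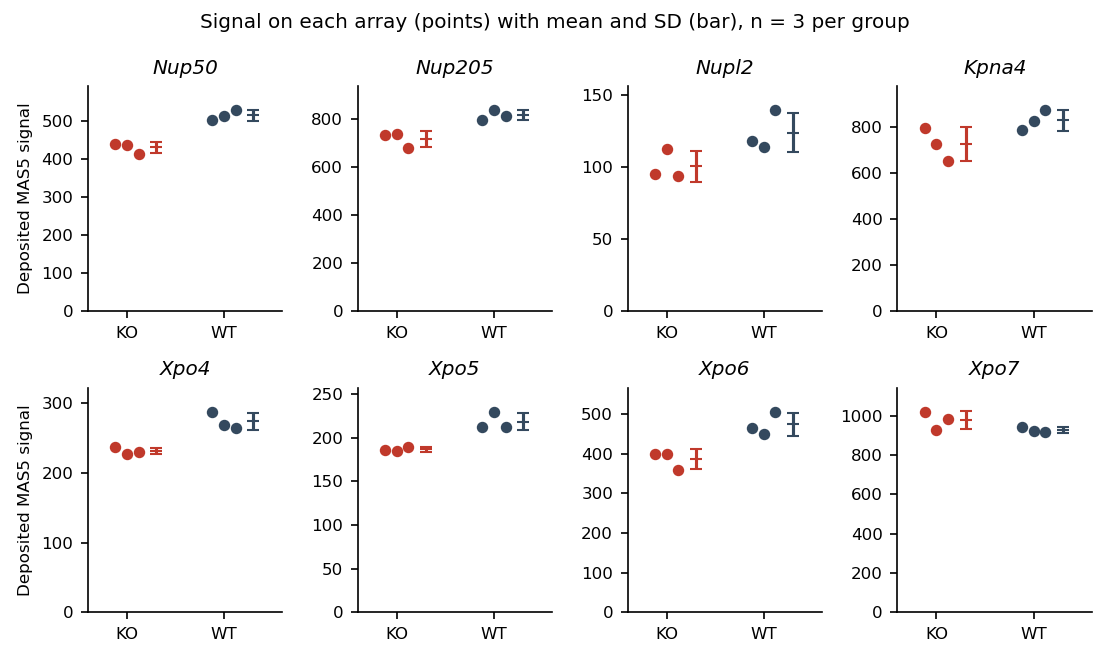
Deposited MAS5 signal on each array for 8 members, KO left of WT, with points for arrays and bars for mean and SD (n = 3 per group). For Nup50, Nup205, Nupl2, Xpo4, Xpo5 and Xpo6 the 3 KO arrays lie below the 3 WT arrays, and for Kpna4 and Xpo7 the groups overlap.

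Importins alpha are the adaptors that read the classical nuclear localisation signal, and none of the 5 was called, with a median of -0.031 and 4 lower means in KO testes. Kpna4 was at 798, 728 and 652 in KO, against 786, 827 and 874 in WT, a log2 fold change of -0.19 ± 0.0751 (SE; limma, adjusted p = 0.129), and the groups overlapped. Kpna2 was at 1189, 1145 and 1085 in KO, against 1191, 1263 and 1188 in WT, a log2 fold change of -0.091 ± 0.0487 (SE; limma, adjusted p = 0.245). Its KO arrays reached into the WT range at KO replicate 1. Kpna1, Kpna3 and Kpna6 were at 0.081, -0.031 and -0.0068.

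Dimmer probe sets of this family pointed in both directions. The second probe set of Kpna4 fell, at 50.2, 51.3 and 47.8 in KO, against 68, 77.8 and 67.6 in WT, a log2 fold change of -0.46 ± 0.121 (SE; limma, adjusted p = 0.0483), without overlap. This call was lost with any array left out (adjusted p 0.0713 to 0.14). A dimmer probe set of Kpna3 was at 153, 165 and 134 in KO, against 123, 104 and 111 in WT, a log2 fold change of 0.40 ± 0.115 (SE; limma, adjusted p = 0.0627). A dimmer probe set of Kpna1 was at 303, 273 and 276 in KO, against 247, 214 and 236 in WT, a log2 fold change of 0.28 ± 0.0872 (SE; limma, adjusted p = 0.0746). For both, KO arrays lay above WT arrays and neither was called. A dimmer probe set of Kpna6 was at 0.18 (adjusted p = 0.173), also with KO arrays above WT arrays. Over the whole list, 139 probe sets name a member, 121 were bright enough to be tested, and 4 of these fell and none rose, against 7.49% of all probe sets called.

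**Figure D3:**
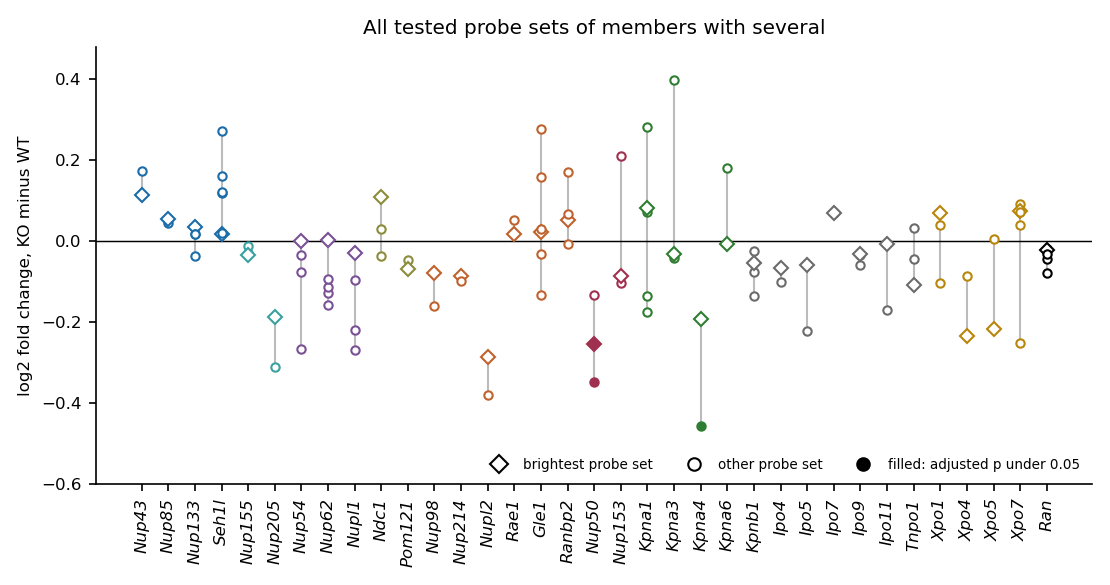
Log2 fold change, KO minus WT, of each tested probe set of the 35 members that have several, with diamonds for the brightest and circles for the others. Filled symbols are called, and they belong to Nup50 at 2 probe sets and to Kpna4 at its dimmer probe set.

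Of the 35 members with several tested probe sets, 22 had the same sign at all of them and 13 did not. The 13, with their lowest and highest log2 fold change, were Nup133 (-0.037 to 0.036), Nup62 (-0.16 to 0.0034), Ndc1 (-0.036 to 0.11), Gle1 (-0.13 to 0.28), Ranbp2 (-0.0079 to 0.17), Nup153 (-0.10 to 0.21), Kpna1 (-0.17 to 0.28), Kpna3 (-0.042 to 0.40), Kpna6 (-0.0068 to 0.18), Tnpo1 (-0.11 to 0.032), Xpo1 (-0.10 to 0.070), Xpo5 (-0.22 to 0.0047) and Xpo7 (-0.25 to 0.093). No probe set of these 13 was called.

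The importin beta family binds cargo or the alpha adaptor directly, and none of its 9 members was called, with 7 lower means and a median of -0.055. Ipo13, a receptor that works in both directions, was at 211, 206 and 206 in KO, against 241, 219.8 and 249.5 in WT, a log2 fold change of -0.18 ± 0.0841 (SE; limma, adjusted p = 0.184). Its groups did not overlap. Tnpo1, the importer of proteins such as HNRNPA1, was at 758, 780.0 and 839.9 in KO, against 863, 885 and 817 in WT, a log2 fold change of -0.11 ± 0.0569 (SE; limma, adjusted p = 0.236), with overlapping arrays. Kpnb1, the partner of importin alpha, was at -0.055, and Ipo4, Ipo5, Ipo7, Ipo8, Ipo9 and Ipo11 lay between -0.067 and 0.069. A dimmer probe set of Ipo5, an importer of ribosomal proteins and histones, was at 683, 714 and 608 in KO, against 797, 771 and 769 in WT, a log2 fold change of -0.22 ± 0.0652 (SE; limma, adjusted p = 0.0663), without overlap.

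The 5 exportins had the lowest family median, -0.22, and 1 of them fell. Xpo6 was at 399.9, 399.6 and 357 in KO, against 465, 450.3 and 505 in WT, a mean of 386 ± 24.5 in KO and 474 ± 28.6 in WT (SD, n = 3 each). The groups did not overlap, and its log2 fold change was -0.29 ± 0.0748 (SE; limma, adjusted p = 0.0435), with an interval of -0.46 to -0.13, from its only probe set. Xpo4, an exporter of EIF5A, was at 237, 227 and 229.7 in KO, against 288, 268 and 265 in WT, a log2 fold change of -0.24 ± 0.0774 (SE; limma, adjusted p = 0.0885), and its other tested probe set was at -0.087. Xpo5, the exporter of microRNA precursors, was at 186, 185 and 189.7 in KO, against 213, 230.0 and 213 in WT, a log2 fold change of -0.22 ± 0.083 (SE; limma, adjusted p = 0.125). The KO arrays of both lay below their WT arrays, and neither passed the threshold. Xpo1, the general exporter of proteins with a leucine-rich signal, was at 1146, 1072 and 1010.3 in KO, against 1010.3, 1042 and 1018 in WT, a log2 fold change of 0.070 ± 0.0529 (SE; limma, adjusted p = 0.406). Xpo7 was at 1021, 928 and 984 in KO, against 943, 921 and 919 in WT, a log2 fold change of 0.074 ± 0.0496 (SE; limma, adjusted p = 0.349). Both had a higher mean in KO testes with overlapping arrays. The family median was -0.11 with the mean of each gene's probe sets, and 0.0047 with the brightest probe set whose name does not end in _x_at or _s_at, since Xpo5 then rests on another probe set. The call of Xpo6 was lost with any array left out: the adjusted p was 0.0648, 0.0688 and 0.102 without KO replicates 1, 2 and 3 in turn, and 0.138, 0.063 and 0.105 without WT replicates 1, 2 and 3 in turn. The difference between families was not tested.

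Ran, the GTPase that sets the direction of karyopherin transport, had the probe set of highest signal among the members and Nupl2 that of lowest signal, which orders probe sets and not transcript levels. Ran was at 1805, 1763 and 1649.8 in KO, against 1688, 1839 and 1771 in WT, a log2 fold change of -0.022 ± 0.0462 (SE; limma, adjusted p = 0.784) with an interval of -0.12 to 0.081. Its 5 tested probe sets lay between -0.078 and -0.019, and the groups overlapped at its brightest.

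Other genes of the same pathway were counted beside the members. Over all tested genes 7.37% fell, 2.98% rose and 34.9% had an unadjusted p under 0.05. Of 5 further genes of the Ran cycle tested, none was called and 1 had an unadjusted p under 0.05, with a median of -0.067. Those of lowest p were Rangrf, which encodes the Ran-binding protein MOG1, at -0.18 (limma, adjusted p = 0.0815) and Ranbp3, a cofactor of XPO1, at -0.18 (adjusted p = 0.208). Of 9 other karyopherins and import adaptors, 1 fell, with a median of -0.18. It was Ranbp17, an exportin-like relative of Xpo7, at 287, 311 and 246 in KO, against 349, 376 and 355 in WT, a log2 fold change of -0.35 ± 0.0931 (SE; limma, adjusted p = 0.0478), without overlap. Its call was lost without each array but KO replicate 2 (adjusted p 0.0787 to 0.137). Snupn, the import adaptor of spliceosomal snRNPs, was at -0.22 (adjusted p = 0.0807). Of 3 other nucleoporin genes tested, 1 fell, with a median of -0.26. It was Pom121l2, related to Pom121, at 755, 787 and 699 in KO, against 869.8, 928 and 893 in WT, a log2 fold change of -0.26 ± 0.0574 (SE; limma, adjusted p = 0.0261), without overlap. Its call was lost without KO replicate 3 or any WT replicate (adjusted p 0.0556 to 0.0927). Ahctf1, which encodes the chromatin-binding nucleoporin ELYS, was at -0.13 (adjusted p = 0.159).

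The nuclear lamina and the LINC complex, which ties the envelope to the cytoskeleton, had 2 of 15 genes fall and none rise, with a median of 0.0061. Over all tested genes 7.37% fell. Of the 15, 6 had a lower and 9 a higher mean in KO testes. Among the uncalled, Sun5 was at -1.45 (limma, adjusted p = 0.0695), with a KO mean of 9.01, under the dim limit. Sun2 was at 0.31 (adjusted p = 0.0652), with KO arrays above WT arrays. Sun3, a SUN-domain protein of spermatids, was at 98, 109.9 and 87.4 in KO, against 159, 170.1 and 168 in WT, a log2 fold change of -0.72 ± 0.11 (SE; limma, adjusted p = 0.00733). Spag4, another SUN-domain protein of spermatids, was at 23.9, 32.4 and 34.3 in KO, against 73.6, 47.5 and 104 in WT, a log2 fold change of -1.09 ± 0.237 (SE; limma, adjusted p = 0.0253). Neither had overlapping groups. The call of Sun3 was lost without WT replicate 1 (adjusted p = 0.0515), and that of Spag4 without KO replicate 1, KO replicate 2, WT replicate 1 and WT replicate 3 (0.0634, 0.0519, 0.102 and 0.0538).

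Because Ranbp17 and Pom121l2 fell while Xpo7 and Pom121 were not called, 6 pairs of a related gene and a member were compared on each array; the pairs were chosen after the values were seen. Rasl2-9, a Ran-like gene known from testis, was at 882, 827 and 848 in KO, against 1012, 1032 and 1015 in WT and fell, with a log2 fold change of -0.26 ± 0.0461 (SE; limma, adjusted p = 0.0133). Its call was lost without WT replicate 1 (adjusted p = 0.076). The ratio of Rasl2-9 to Ran differed by -0.24 on the log2 scale, KO minus WT, that of Pom121l2 to Pom121 by -0.19, that of Ranbp17 to Xpo7 by -0.43 and that of Kpna7 to Kpna2 by -0.32. In these 4 pairs the KO ratios all lay below the WT ratios, though Kpna7 itself was not called (limma, adjusted p = 0.0825). Ratios used the brightest probe set of each gene, and the probe sets of Xpo7 ran from -0.25 to 0.093. The ratios overlapped for Nup210l over Nup210, at a difference of -0.44, and for Ranbp6 over Ipo5, at -0.20. Neither Nup210l nor Ranbp6 was called (limma, adjusted p = 0.226 and 0.326). Since the pairs were chosen for their difference in ratio, these ratios are a description. An exact test run on each ratio could not give a p under 0.1 with 3 arrays per group and is not used. Probes of near-identical copies such as Ran and Rasl2-9 can share signal, so their separate values are uncertain.

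**Figure D4:**
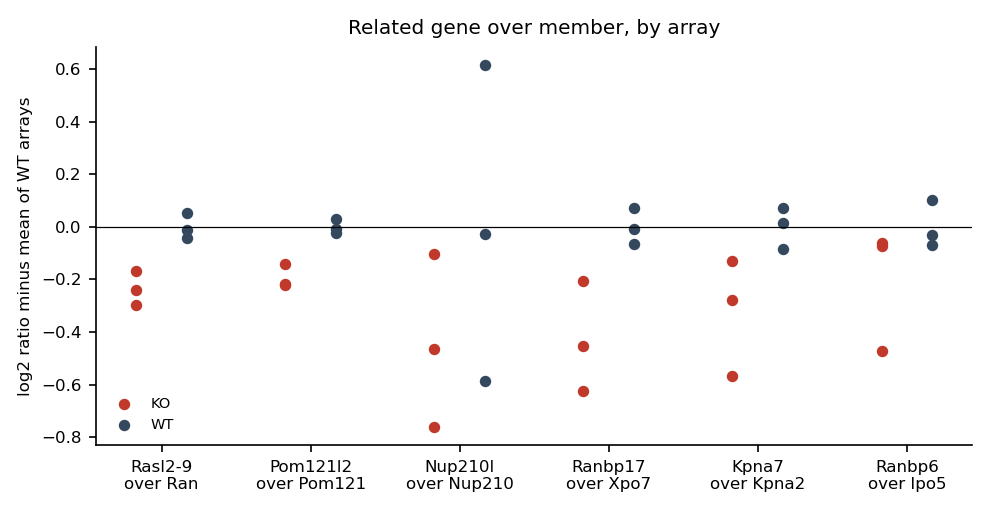
Log2 ratio of a related gene to a member on each array, minus the mean of the WT arrays, for 6 pairs, with KO points left of WT points. In 4 of the 6 pairs the KO ratios lie below all WT ratios, and in the pairs of Nup210l and Ranbp6 they overlap.

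Markers of germ cell stages moved between the same arrays while the nucleoporin median stayed close to 0. With the WT mean set to 0, the median of the nucleoporins was 0.011, -0.025 and -0.035 on the KO arrays, against -0.014, -0.0015 and 0.011 on the WT arrays, and that of the exportins was -0.20, -0.23 and -0.20 on the KO arrays, against -0.018, -0.010 and -0.013 on the WT arrays. The median of the round spermatid markers was -0.87, -0.89 and -0.70 on the KO arrays, against 0.087, -0.31 and 0.19 on the WT arrays. Of these markers 12 of 13 fell, with a summed signal of 3263 to 3478 in KO and 4655 to 5175 in WT. Among the 12, Actl7a and Catsper3 had KO means under the dim limit of 20.5. Both were tested through the mean of both groups, and the size of their fall is uncertain. Of elongating spermatid markers 7 of 11 fell, with a summed signal of 434 to 577 in KO and 847 to 1855 in WT. Prm2 was under the dim limit and was not tested. Among the called, Akap4, Capza3 and Hils1 had KO means of 5.43, 6.41 and 15.7, also under that limit. These too were tested through the mean of both groups, and the size of their fall is uncertain. Of pachytene spermatocyte markers 5 of 12 fell, with a summed signal of 7782 to 8978 in KO and 9710.3 to 10135 in WT. Of markers of undifferentiated spermatogonia 5 of 8 rose, with a summed signal of 3298 to 3344 in KO and 2726 to 2762 in WT. Among the uncalled of this list, Etv5 was at 0.35, and Gfra1 and Id4 had lower means in KO testes, both at -0.15. For these marker counts, the shares over all tested genes were 7.37% that fell and 2.98% that rose.

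Summed signals of the Sertoli, Leydig, endothelial and macrophage lists were higher on every KO array than on any WT array, and those of the myoid list overlapped. A sum is weighted to the probe sets of high signal. By list medians, the Sertoli and Leydig lists stayed apart, but the endothelial and macrophage lists overlapped. The endothelial median was 0.0036 on KO replicate 1 and 0.084 on WT replicate 2. The macrophage median was 0.11 on KO replicate 1 and 0.15 on WT replicate 3. Of Sertoli cell markers 3 of 10 rose (summed signal 6657 to 7022 in KO and 6056 to 6288 in WT), of Leydig cell markers 2 of 6 (2685 to 3942 in KO and 2224 to 2563 in WT), of endothelial markers 2 of 7 (273 to 383 in KO and 239 to 255 in WT), of peritubular myoid markers none of 7 at an adjusted and 1 at an unadjusted p under 0.05 (2659 to 3079 in KO and 2547 to 2731 in WT) and of macrophage markers none of 10 at an adjusted and 5 at an unadjusted p (2211 to 3371 in KO and 1519 to 2079 in WT). The shares over all tested genes were 2.98% that rose and 34.9% with an unadjusted p under 0.05 in either direction. Amh of the Sertoli list and Tie1 of the endothelial list were under the dim limit. In whole testis, fewer cells of a type and less RNA per cell cannot be told apart, and the part of cell make-up in the values of Nup50, Xpo6, Ranbp17, Pom121l2, Rasl2-9, Sun3 and Spag4 was not tested.

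**Figure D5:**
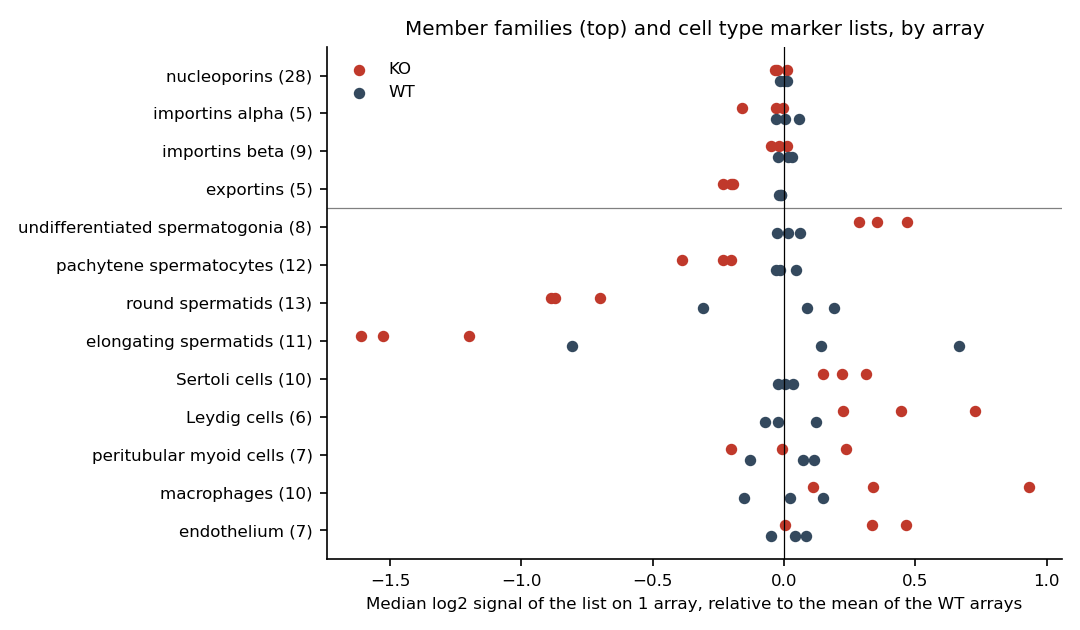
Median log2 signal of each member family (top) and cell type marker list on each array, with the WT mean set to 0, KO and WT in different colours. The nucleoporin medians stay between -0.035 and 0.011 on all 6 arrays, whereas the round spermatid medians are -0.89 to -0.70 on the KO arrays and -0.31 to 0.19 on the WT arrays.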

How the data were processed

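The authors deposited 1 MAS5 signal intensity per probe set and array, in 1 table of 45101 probe sets. The submitters' processing notes name MAS5 and give no version. Each of the 6 arrays had a mean of 150.0 once 2% of values were trimmed at either end. MAS5 subtracts mismatch signal, which makes dim values unsteady. Precision is limited by having 3 arrays per group. Detection calls were not used here.

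The 64 control probe sets were left out, and 34945 of the others have 1 gene symbol and 932 several. Symbols were updated through Entrez identifiers against RefSeq (GRCm38.p6), whose promoter table gave the sequences. Signals were log2-transformed with a pseudocount of 7 (the 25th percentile), which understates changes of dim probe sets. Probe sets with a mean at or above the 40th percentile (20.5) were tested, and all 48 members passed, through the mean of both groups together. KO and WT were compared by the moderated test of limma 3.58.1 under R 4.3.3 (eBayes with trend, no covariate, two-sided, Benjamini-Hochberg over 27022 probe sets, called under 0.05), and the fit was tested on simulated data. In those data most changes about as large as the largest among the members were not called. Far fewer probe sets were changed there than were called in the real data, and they were drawn from all those tested. That recovery therefore does not measure the recovery for the members. An uncalled member is not shown to be unchanged.

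The members and lists were chosen with earlier results of these data known. Array values are given for Nxf2, for every called member and for the 2 of lowest p in each role. Members whose probe sets differ in sign or call are named, as are the called genes and the 2 of lowest p in each pathway list. Genes outside this rule, the 6 pairs and the dimmer probe sets given by array were chosen after their values were seen. Alternatives were other scalings, pseudocounts (1 and 39), dim filters, variance models, probe set choices, a replicate block and each array left out. The choice of probe sets not named _x_at or _s_at was added after seeing the data.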

Additional observations from a re-analysis of the deposited data

How the results depend on the processing

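Both calls among the 48 members kept their direction under every alternative run, and their call depended on the setting. The number of members called was 0 without the dim filter and 0 without the intensity trend, where Nup50 had adjusted p = 0.0585 and 0.0886, and Xpo6 0.078 and 0.0984. At an unadjusted p under 0.05 there were 9 members in the limma fit as reported. With array weights 13 were called, 10 lower and 3 higher. With the mean of each gene's probe sets 2 were called, Kpna4 in place of Nup50 (adjusted p = 0.0793). With each array left out in turn, 0 to 1 were called, the 1 being Nup88 without KO replicate 1. Over all probe sets 2024 were called, against 1005 without the dim filter, 743 without the trend, 7217 with array weights and 159 (without WT replicate 1) to 1534 (without KO replicate 1) with an array left out. Median centring gave 1509 lower and 353 higher, against 1414 and 610 as reported, and array weights 3446 and 3771.

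With the replicate number as a block, 3 members were called, Nup205 being added (adjusted p = 0.0454), and 4503 probe sets in all (2330 lower and 2173 higher). Array deviations correlated at 0.079, 0.457 and 0.266 for the same numbers, and 5 of 6 arrays correlated best with their own number, and the series text speaks of pairs of testes without tying them to these numbers or to a litter. The value for number 1 was low. The block was planned as an alternative, and these correlations do not settle whether the numbers mark pairs.

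The exportin median, -0.22, was -0.24 after quantile normalization, -0.26 after median centring, -0.19 with a pseudocount of 39, -0.19 with array weights, -0.11 with the mean of probe sets, 0.0047 without _x_at and _s_at probe sets and -0.24 to -0.18 with an array left out. The importin beta median was -0.093 after median centring, -0.0084 with array weights and -0.069 to -0.021 with an array left out. The nucleoporin median was -0.036, -0.020 and -0.035 to 0.0034 under the same settings.

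Of the 22 members given array by array at their brightest probe set, 17 kept their sign at every setting run. Xpo5 was 0.0047 without _x_at and _s_at probe sets (adjusted p = 0.979). Nup62 was -0.000198 after quantile normalization, -0.034 after median centring, -0.098 with the mean of probe sets, -0.13 without _x_at and _s_at probe sets and -0.030 to 0.028 with an array left out. Nup153 was 0.0069 with the mean of probe sets. Nupl1 was 0.030 with array weights and -0.053 to 0.0057 with an array left out, and Ran was 0.050 and -0.054 to 0.015. None of these 5 was called at a setting named for it here. Over all 17 settings, Xpo5 was called at 1 (limma, lowest adjusted p = 0.0399), and Nup62, Nup153, Nupl1 and Ran at none. The cause of the changes in sign was not tested. Without the dim filter or without the trend, the calls of Ranbp17, Pom121l2 and Spag4 were lost too, that of Rasl2-9 was lost without the trend, and that of Ranbp17 after quantile normalization (adjusted p = 0.0519). With 3 arrays per group, dim probe sets are the least certain.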
